A study of Mus musculus with 12 samples.

Results

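Caveolae are flask-shaped pits in the plasma membrane that are abundant in endothelial cells, the cells lining blood and lymph vessels. Caveolin 1 (Cav1) is the membrane protein without which endothelial caveolae do not form, and caveolin 2 (Cav2) assembles with it. EHD2 is an ATPase that sits at the neck of the pit and holds it at the surface, EHD4 is its close relative, and PACSIN2 is a curved-membrane protein that helps shape the neck. Dynamin 2 (Dnm2) is the GTPase that cuts necks of vesicles, including those of clathrin-coated pits. PLVAP forms the thin diaphragm across the mouth of caveolae and across fenestrae, the pores of capillaries in gut, endocrine glands and kidney, and is known as a mark of permeable, fenestrated endothelium.

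The transcripts of these 7 genes, Cav1, Cav2, Plvap, Ehd2, Ehd4, Pacsin2 and Dnm2, were taken by symbol from a table of 27825 genes, and all 7 were found. They were measured by bulk RNA-seq in sorted endothelial cells of male ROSA26-eYFP+/+ Cdh5-CreERT2+ mice, in 12 libraries that form 4 groups of 3: mesentery on normal chow, epididymal fat on normal chow, and the same tissues on a high fat diet (HFD). In these mice the promoter of Cdh5, the gene of the endothelial junction protein VE-cadherin, drives a Cre recombinase that tamoxifen activates and that switches on the yellow fluorescent protein YFP. All mice, the chow groups included, ate tamoxifen in the diet from 6 weeks of age for 2 weeks, then chow with 5.8% fat or a diet with 60% fat from 8 weeks of age for 12 to 13 weeks. Tissues of 6 mice were combined in each sample, digested in the presence of actinomycin D, an inhibitor of transcription, and sorted for YFP. The titles give each group a replicate A, B and C, while the protocol speaks of 2 independent replicates. The p-values therefore measure the spread between these libraries, which may in part be technical.

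The libraries held 8348897 to 25397963 reads assigned to genes, and the lowest number of reads for any of the 7 genes in any library was 456, for Pacsin2. Values are the authors' normalized counts, in which reads are scaled to a common level across libraries. The endothelial genes Cdh5 (2172 to 4822 normalized counts) and Pecam1 (3730 to 12974) were present in all 12 libraries. Transcripts of other cells were present too. A list of 5 genes of the exocrine pancreas summed to 17664 to 127847 in mesentery and to at most 52.8 in epididymal fat. The sum of 7 adipocyte genes was 63392 to 86328 in epididymal fat on chow and 3946 to 14054 in the other 3 groups. The sum of 12 genes expressed in all endothelial cells was 115789 to 161076 in mesentery on chow, 109976 to 125582 in mesentery on HFD, and, in epididymal fat, 84048 to 101732 on chow and 47521 to 89815 on HFD. In bulk samples, fewer cells of a type and less RNA per cell cannot be told apart.

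Cav1 and Cav2 are neighbours, with Cav2 immediately before Cav1 in the RefSeq gene order of chromosome 6, and they are the pair of the 7 whose levels followed each other most closely. Their promoters are shown for that reason. Of the 7 genes, 6 had a promoter window in the RefSeq table of GRCm38.p6 (Plvap had no entry), each from 250 bases before to 50 bases after an annotated start, and Cav1 had 2 such windows. The submitters' processing notes name mm39 for the data, so these GRCm38.p6 positions apply to the reference sequence only. The lines give 280 bases, from 250 before the start to 30 after it, for the first Cav1 start at chr6:17306085-17306364 and for Cav2 at chr6:17280935-17281214, both on the plus strand. Capitals mark matches, on either strand, to the GC box GGGCGG, the CCAAT box and the TATA box TATAAA.
Cav1: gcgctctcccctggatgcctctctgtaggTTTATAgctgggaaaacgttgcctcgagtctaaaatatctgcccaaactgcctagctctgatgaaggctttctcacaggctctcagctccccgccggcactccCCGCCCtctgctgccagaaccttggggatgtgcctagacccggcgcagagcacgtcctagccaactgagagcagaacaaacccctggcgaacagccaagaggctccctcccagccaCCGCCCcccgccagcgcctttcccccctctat
Cav2: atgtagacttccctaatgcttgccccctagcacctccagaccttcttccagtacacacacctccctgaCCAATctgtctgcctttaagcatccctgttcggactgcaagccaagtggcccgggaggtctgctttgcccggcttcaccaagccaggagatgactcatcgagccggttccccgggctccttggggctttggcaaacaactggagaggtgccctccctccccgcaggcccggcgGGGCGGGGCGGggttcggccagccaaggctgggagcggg
The Cav1 window held a TATA box on the opposite strand with its first base 221 bases before the start, and GC boxes on the opposite strand beginning 118 and 2 bases before it. The Cav2 window held a CCAAT box beginning 182 bases before the start and a pair of GC boxes beginning 9 and 4 bases before it, which overlap by 1 base. Among 32851 mouse promoter windows of 300 bases, 35.7% held a GC box, 37.4% a CCAAT box and 13.6% a TATA box. Over 300 bases the Cav1 window was 59.3% G or C with 13 CpG dinucleotides and the Cav2 window 64.3% with 16, against medians of 52.7% and 7 over all windows. Neither window held the letters CACCC (57.5% of all windows), CCGGAAG (8.86%), AGATAA (11.2%), ACAAAG (18.7%) or CACGTG (7.15%). A match is a description of letters and not a site of binding.

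The first question was how the 2 vascular beds differ on normal chow. The libraries of epididymal fat had more Cav1, Cav2 and Pacsin2 transcript than those of mesentery and far less Plvap and Ehd4. Of the 7 genes, 5 passed an adjusted p under 0.05 (limma on log2(normalized count + 1), Benjamini-Hochberg over 22238 genes), 3 of them higher and 2 lower in epididymal fat. Over all genes tested, 12.8% passed, 7.32% as higher and 5.47% as lower. The 3 libraries of each tissue did not overlap for any of the 7 genes, a pattern seen in 28.7% of all genes tested.

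**Figure D1:**
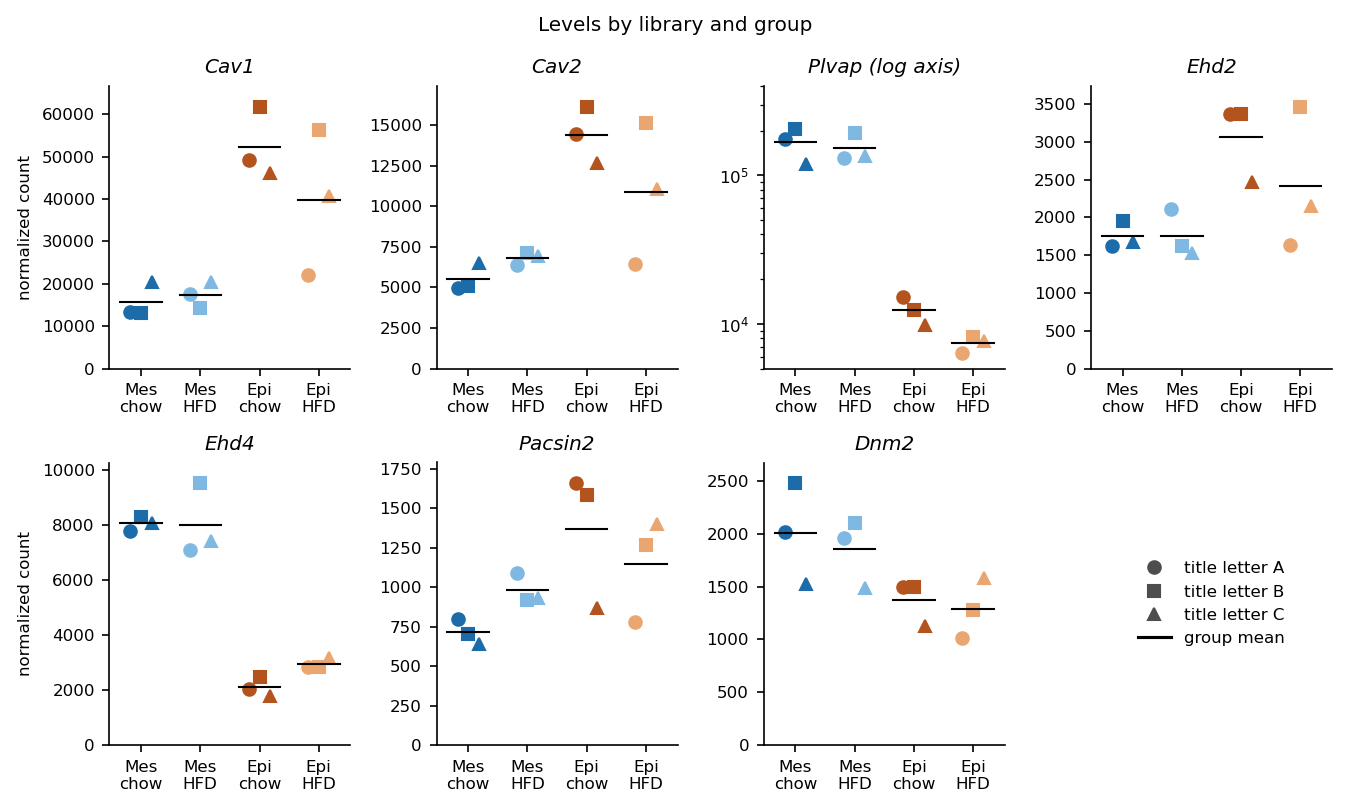
Normalized counts of the 7 genes in each library (points; shape gives the title letter) with the group mean (line), for mesentery (Mes) and epididymal fat (Epi) on chow or HFD. The Plvap axis is logarithmic and the other axes are linear from 0. Cav1 and Cav2 are high in epididymal fat on chow, and Plvap and Ehd4 are high in mesentery on both diets. Within epididymal fat, replicate A on HFD and replicate C on chow are each the lowest of their group for all 7 genes.

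Cav1 (ENSMUSG00000007655) had 13427, 13158 and 20344 normalized counts in the 3 mesentery libraries on chow (A, B and C) and 49209, 61749 and 46056 in the epididymal libraries. On HFD it had 17581, 14306 and 20478 in mesentery and 22144, 56311 and 40771 in epididymal fat. The epididymal libraries were above the mesentery libraries on both diets, but replicate A on HFD lay just above the highest mesentery library. On chow the difference was 1.76 on the log2 scale (SE 0.346, 95% interval 1.02 to 2.51, limma adjusted p 0.00467), or 3.39-fold. On HFD it was 1.10 (SE 0.346, interval 0.36 to 1.85) and did not pass (adjusted p 0.0707). Without replicate A of epididymal fat it was 1.47 with an adjusted p of 0.00894.

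Cav2 (ENSMUSG00000000058), the partner of caveolin 1 in the coat, had 4945, 5089 and 6531 normalized counts in the mesentery libraries and 14456, 16130 and 12687 in epididymal fat on chow. On HFD the values were 6369, 7121 and 6941 in mesentery and 6442, 15145 and 11097 in epididymal fat. The tissues were apart on chow and overlapped on HFD through replicate A of epididymal fat. On chow Cav2 was 2.62-fold higher in epididymal fat (log2 1.39, SE 0.271, interval 0.80 to 1.97, limma adjusted p 0.00449). On HFD the difference was 0.59 (interval 0.01 to 1.18, adjusted p 0.230), and 0.93 without replicate A of epididymal fat (adjusted p 0.0195).

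Cav1 and Cav2 thus had their highest mean in epididymal fat on chow, followed by epididymal fat on HFD, mesentery on HFD and mesentery on chow. For Cav1 the means were 52338 ± 8301 (SD, n = 3), 39742 ± 17106, 17455 ± 3088 and 15643 ± 4073 normalized counts in that order. Only the step from epididymal fat to mesentery, both on HFD, separated neighbouring groups for Cav1. For Cav2 the means were 14424 ± 1722, 10894 ± 4355, 6810 ± 393 and 5522 ± 877, and every pair of neighbouring groups overlapped. Per kilobase of exon, Cav1 stood above Cav2 in every library. The ratio of Cav1 to Cav2 was 2.72 ± 0.267 (SD, n = 3) in mesentery on chow, 2.49 ± 0.482 in mesentery on HFD. In epididymal fat it was 3.51 ± 0.206 on chow and 3.50 ± 0.146 on HFD. The epididymal ratios (3.30 to 3.71) did not overlap the mesentery ratios (1.95 to 3.02).

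Plvap (ENSMUSG00000034845), the gene of the diaphragm protein, showed the widest range of the 7. Its normalized counts were 175846, 205657 and 119755 in mesentery on chow and 131661, 192785 and 134501 in mesentery on HFD. In epididymal fat they were 15128, 12340 and 9890 on chow and 6347, 8199 and 7626 on HFD. Every mesentery library was far above every epididymal library, and the epididymal groups did not overlap each other. The mesentery libraries also held transcripts of 5 exocrine pancreas genes, with sums of 17664 to 127847 against at most 52.8 in epididymal fat. The part of pancreas tissue in the Plvap values was not tested. In mesentery Plvap took 0.931% to 1.32% of the reads of a library and ranked between the 3rd and the 12th most counted gene, against 0.0424% to 0.100% of reads in epididymal fat.

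The tissue difference of Plvap was -3.73 on the log2 scale on chow (SE 0.317, interval -4.41 to -3.05, limma adjusted p 1.04e-05), which is 13.3-fold lower in epididymal fat. On HFD it was -4.36 (SE 0.317, interval -5.04 to -3.67, adjusted p 3.57e-06), or 20.5-fold lower. By p-value this was the 48th and the 21st gene of the 22238 in the 2 comparisons. Their groups share no libraries, but both p-values use a common estimate of the spread from all 12 libraries. Since the endothelial genes as a list were also lower in epididymal fat, levels were set against them. Scaled to the 12 endothelial genes of each library, the difference was -3.38 on chow (adjusted p 2.68e-06) and -3.61 on HFD (adjusted p 2.00e-06). That scaling moved the median of all genes from -0.08 to 0.28 on chow and from 0.06 to 0.81 on HFD, and values scaled in this way are to be read against it. Per kilobase, the ratio of Plvap to Pecam1 was 42.1 ± 8.52 (SD, n = 3) in mesentery and 5.95 ± 1.48 in epididymal fat on chow. On HFD it was 47.7 ± 9.46 and 4.69 ± 0.699. The ratio of Plvap to Cdh5 was 92.5 ± 2.61 in mesentery and 7.16 ± 2.53 in epididymal fat on chow, and 115 ± 32.1 and 5.41 ± 1.44 on HFD.

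The order of the beds was the opposite for Plvap and Cav1. Per kilobase, Plvap exceeded Cav1 20.0-fold in mesentery on chow (10.2 to 27.1 over the 3 libraries) and 15.9-fold on HFD (11.4 to 23.4). In epididymal fat the ratio was 0.417 (0.346 to 0.533) on chow and 0.358 (0.252 to 0.497) on HFD. Plvap was therefore the more abundant of both transcripts in all 6 mesentery libraries and Cav1 in all 6 epididymal libraries.

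**Figure D2:**
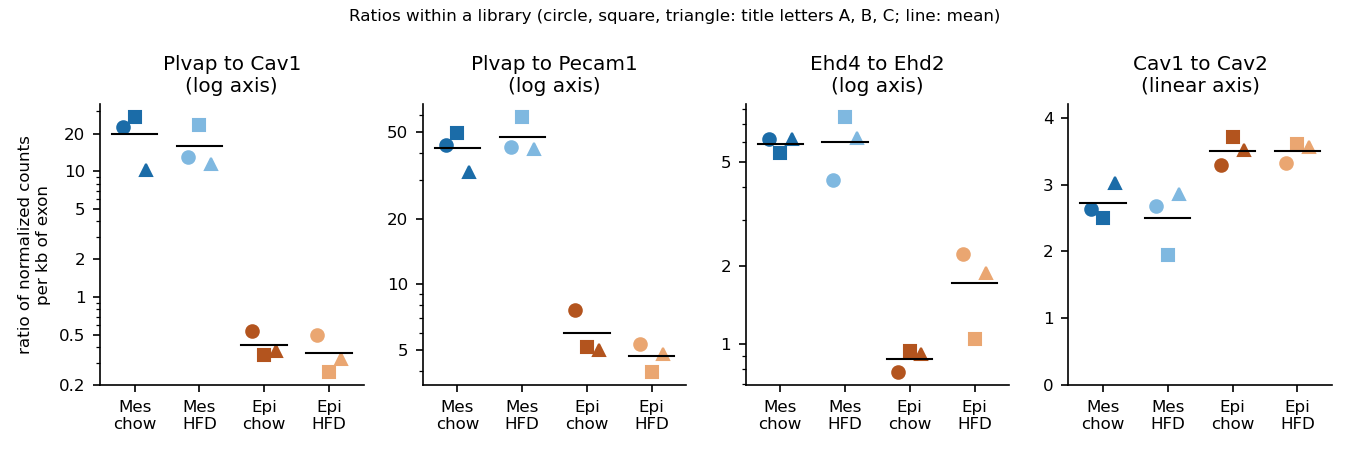
Ratios of normalized counts per kilobase of exon within each library (points) and group means (lines) for 4 gene pairs. The first 3 panels have logarithmic axes; Plvap to Cav1 lies above 10 in mesentery and below 0.54 in epididymal fat, Plvap to Pecam1 and Ehd4 to Ehd2 are higher in mesentery, and Cav1 to Cav2 is higher in epididymal fat.

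Among the genes of the caveolar neck, Ehd2 and Ehd4 differed in opposite directions between the beds. Ehd2 (ENSMUSG00000074364) had 1617, 1953 and 1680 normalized counts in the mesentery libraries and 3364, 3366 and 2462 in epididymal fat on chow, and 2104, 1624 and 1532 against 1628, 3461 and 2154 on HFD. The tissues were apart on chow and overlapped on HFD. The chow difference of 0.80 (SE 0.250, interval 0.26 to 1.34) missed the threshold (limma adjusted p 0.0538). Under the 12 other ways of processing it passed in 7, with adjusted p between 0.000402 and 0.120. On HFD the difference was 0.40 (adjusted p 0.421).

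Ehd4 (ENSMUSG00000027293) had 7786, 8277 and 8066 normalized counts in the mesentery libraries and 2047, 2473 and 1767 in epididymal fat on chow. On HFD it had 7069, 9497 and 7414 in mesentery and 2827, 2840 and 3173 in epididymal fat. The mesentery libraries were above the epididymal libraries on both diets. The difference was -1.95 on chow (SE 0.179, interval -2.34 to -1.57, limma adjusted p 1.86e-05), or 3.87-fold lower in epididymal fat. On HFD it was -1.43 (SE 0.179, interval -1.82 to -1.04, adjusted p 0.000303), or 2.69-fold lower, and -0.68 when scaled to the endothelial list (adjusted p 0.0364). Per kilobase, the ratio of Ehd4 to Ehd2 was 5.90 ± 0.421 (SD, n = 3) in mesentery and 0.878 ± 0.0874 in epididymal fat on chow, and 5.98 ± 1.60 and 1.72 ± 0.603 on HFD. The more abundant of the pair was therefore Ehd4 in all 6 mesentery libraries and Ehd2 in the 3 epididymal chow libraries.

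Pacsin2 (ENSMUSG00000016664) had the lowest mean of the 7 per kilobase in 3 of the 4 groups, the exception being epididymal fat on chow, where Dnm2 (258) lay below Pacsin2 (279). Its normalized counts were 800, 703 and 642 in mesentery and 1657, 1586 and 866 in epididymal fat on chow. On HFD they were 1090, 919 and 934 in mesentery and 780, 1264 and 1402 in epididymal fat. On chow the epididymal replicate C was close to the highest mesentery library, and on HFD the tissues overlapped. The chow difference of 0.88 (SE 0.265, interval 0.31 to 1.46, 1.85-fold) passed narrowly with a limma adjusted p of 0.0439. The call was lost when any 1 of 5 of the 6 libraries was left out, with adjusted p up to 0.185, and without epididymal replicate C the difference was 1.19 with an adjusted p of 0.00698. On HFD the difference was 0.19 (interval -0.38 to 0.76, adjusted p 0.807).

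Dnm2 (ENSMUSG00000033335), the scission GTPase, varied least. It had 2020, 2478 and 1523 normalized counts in the mesentery libraries and 1501, 1493 and 1131 in epididymal fat on chow, and 1964, 2105 and 1492 against 1015, 1279 and 1580 on HFD. The tissues were narrowly apart on chow and overlapped on HFD. The differences of -0.53 on chow (interval -1.02 to -0.04, limma adjusted p 0.163) and -0.53 on HFD (adjusted p 0.199) did not pass. Scaled to the endothelial list, the value on HFD was 0.22, so its sign depended on the scaling.

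On HFD as a whole, 2 of the 7 genes passed between the tissues, Plvap and Ehd4, both lower in epididymal fat. Over all genes tested 8.34% passed in that comparison, 3.43% as lower. The libraries of the tissues did not overlap for 3 of the 7, Cav1, Plvap and Ehd4, a pattern found in 26.4% of all genes tested. Without replicate A of epididymal fat, 4 of the 7 passed, Cav1 and Cav2 being added. Scaled to the endothelial list, 6 of the 7 passed, with Cav1 (1.85), Cav2 (1.35), Ehd2 (1.16) and Pacsin2 (0.94) higher in epididymal fat. Under that scaling 6064 of all 22238 genes tested passed, and the median of all genes was 0.81. The epididymal replicate A had the lowest value of its group for all 7 genes and the lowest sum of endothelial genes of all 12 libraries (47521). On chow, replicate C of epididymal fat was likewise the lowest of its group for all 7 genes and for that sum (84048). These 2 libraries are numbered 88 and 87, and their deviations from group means had a correlation of 0.838. The labels do not say what the numbers stand for.

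**Figure D3:**
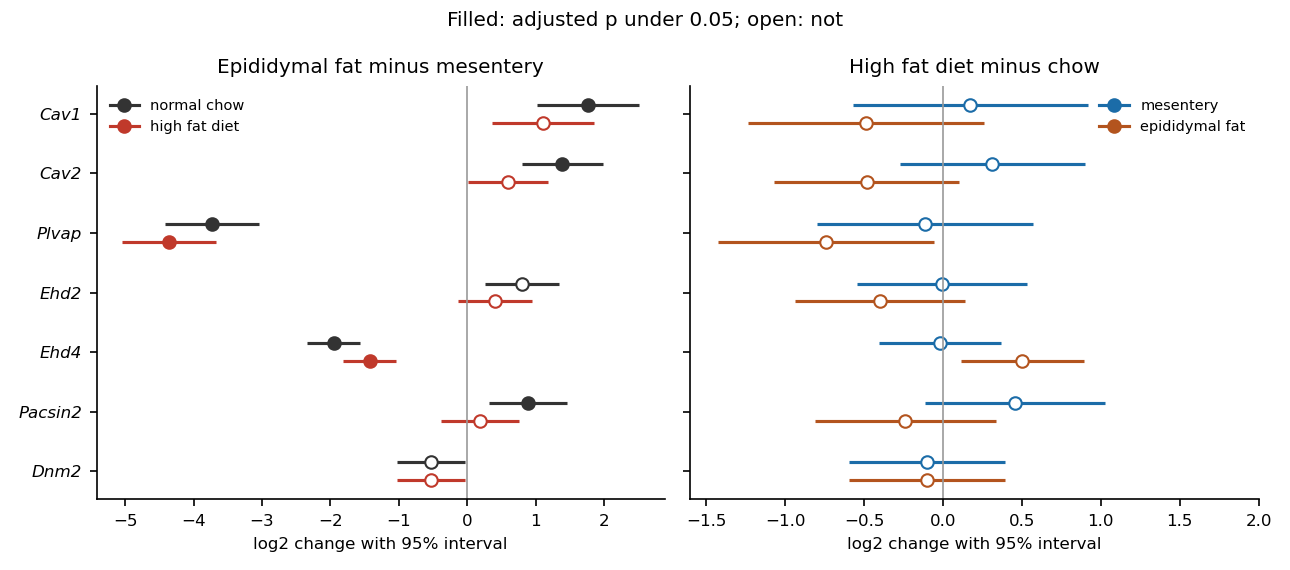
Fitted log2 changes of the 7 genes with 95% intervals from limma, for epididymal fat minus mesentery on each diet (left) and for HFD minus chow in each tissue (right). Filled points had an adjusted p under 0.05: Cav1, Cav2, Plvap, Ehd4 and Pacsin2 between tissues on chow, Plvap and Ehd4 between tissues on HFD, and none between diets.

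Mesentery and epididymal libraries with the same title letter and diet share a number in their descriptions, which gives 6 pairs. Plvap was higher in mesentery in 6 of 6 pairs (11.6-fold to 23.5-fold) and Ehd4 in 6 of 6 (2.34-fold to 4.57-fold). Cav1 was higher in epididymal fat in 6 of 6 pairs (1.26-fold to 4.69-fold) and Cav2 in 6 of 6 (1.01-fold to 3.17-fold). For Plvap, Ehd4 and Cav1 the tissues did not overlap on either diet, so any pairing within a diet gives 6 of 6. Ehd2 and Pacsin2 were higher in epididymal fat in 5 of 6 pairs and Dnm2 in mesentery in 5 of 6. The pair numbered 88, which holds epididymal replicate A on HFD, gave the exceptions for Ehd2 (log2 -0.37) and Pacsin2 (-0.48) and the smallest differences of Cav1 (0.33) and Cav2 (0.016).

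Markers of other cells moved with the tissue contrast. Over all genes tested, 12.8% passed between the tissues on chow and 8.34% on HFD. Groups did not overlap for 28.7% and 26.4% of them, and the counts below are to be read against these shares. The lymphatic list of 5 genes summed to 1299 to 12647 normalized counts in the mesentery libraries and 21495 to 35484 in epididymal fat on chow, and to 2733 to 4453 and 11256 to 17230 on HFD. On chow 3 of its 5 genes passed as higher in epididymal fat and 1 as lower, and on HFD 0 and 1. On HFD all 5 had an unadjusted p under 0.05, edgeR called 0 and DESeq2 3. The list median was 3.02 on chow and 2.49 on HFD. The smooth muscle and pericyte list of 8 genes was 1325 to 1599 and 12301 to 22484 on chow, and 1617 to 3848 and 5967 to 11955 on HFD, with 6 and 3 of 8 genes passing, all higher in epididymal fat. All 6 fibroblast genes passed as higher in epididymal fat on both diets, with sums of 4395 to 9827 in mesentery and 17725 to 56120 in epididymal fat. The adipocyte list separated the tissues on chow, where all 7 of its genes passed as higher in epididymal fat. On HFD its sums overlapped (4141 to 8702 in mesentery, 3973 to 14054 in epididymal fat), and 0 of its 7 genes passed by limma, edgeR or DESeq2, or had an unadjusted p under 0.05. Of 7 macrophage genes, 3 passed as higher in epididymal fat on chow and 5 on HFD, with list medians of 3.10 and 4.30 on the log2 scale. Of 3 red blood cell genes, 3 passed as higher on each diet, with sums of 175 to 396 in mesentery and 31874 to 43934 in epididymal fat. Of 4 mesothelial genes tested, 3 passed as higher on chow and 0 on HFD by limma (1 at an unadjusted p under 0.05, 0 by edgeR and DESeq2). All 5 pancreas genes passed as lower in epididymal fat on both diets. Defining markers at 0 in at least 1 library were Prox1 (lymphatic) in mesentery on HFD, Adrb3 (adipocyte) and Adgre1 (macrophage) in mesentery on chow, Lrrn4 and Wt1 (mesothelial) in mesentery on both diets, Msln (mesothelial) in mesentery on chow, and all 5 pancreas genes in epididymal fat on both diets. The summed capillary markers, a list of 5 genes that includes Gpihbp1, overlapped between tissues on HFD (84082 to 122562 and 59678 to 126865) and on chow (69567 to 132722 and 116609 to 129767). Their list median was -0.43 on chow and -0.85 on HFD, with 1 of 5 genes passing as lower on each diet and groups that did not overlap for 3 of 5. Venous sums (4 genes) were 3125 to 3537 in mesentery and 1918 to 2790 in epididymal fat on chow. On HFD they were 2547 to 2788 and 1651 to 2413. By sign 3 of these 4 genes were higher in epididymal fat on each diet, with list medians of 1.29 and 0.61. Arterial sums (6 genes) overlapped between tissues on both diets. The part of other cells in the tissue differences was not tested.

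The second question was whether HFD changed these transcripts. In mesentery 0 of the 7 passed by limma, and 0.0135% of all genes did. None of the 7 had an unadjusted p under 0.05, which 6.15% of all genes had, and edgeR and DESeq2 on the recovered reads also called 0 of the 7. The change was 0.17 for Cav1 (interval -0.57 to 0.92), 0.31 for Cav2 (-0.27 to 0.90) and -0.11 for Plvap (-0.80 to 0.57). The narrowest interval was that of Ehd4, at -0.02 (-0.41 to 0.37). Pacsin2 had the only groups that did not overlap, a pattern in 9.61% of all genes tested, with a change of 0.46 (interval -0.12 to 1.03, adjusted p 0.897).

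In epididymal fat 0 of the 7 passed by limma and 0 by edgeR, against 0.549% of all genes by limma. Plvap and Ehd4 had an unadjusted p under 0.05, as 6.94% of all genes had. Their groups did not overlap, a pattern in 13.5% of all genes tested. Plvap went from 12453 ± 2621 (SD, n = 3) normalized counts on chow to 7391 ± 948 on HFD, a log2 change of -0.74 (interval -1.42 to -0.06, limma adjusted p 0.616). Ehd4 went from 2096 ± 356 to 2947 ± 196, a change of 0.50 (interval 0.12 to 0.89, adjusted p 0.394). DESeq2 called both, with adjusted p of 0.0447 for Plvap and 0.0450 for Ehd4. Over all genes DESeq2 called 563 in this comparison, against 122 by limma. Between the diets the adipocyte list had a median change of -2.65, with 3 of 7 genes passing as lower, and its sums went from 63392 to 86328 on chow to 3973 to 14054 on HFD. The 12 endothelial genes had a median change of -0.56 with 0 passing by limma (5 unadjusted, 0 by edgeR, 1 by DESeq2). The sum of 7 macrophage genes was 1457 to 9201 on chow and 20386 to 48928 on HFD. The part of these cells in the diet values of the 7 genes, Cav1 and Cav2 included, was not tested. Scaled to the endothelial list, the Plvap change was -0.22 and the Ehd4 change 1.02 (limma adjusted p 0.0337). This scaling raises every gene by the same amount, the median of all genes (0.10 before scaling) included, and these values are to be read against that.

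Cav1 and Cav2 had lower means on HFD in epididymal fat, with overlapping groups and changes that did not pass. The change was -0.49 for Cav1 (interval -1.23 to 0.26) and -0.48 for Cav2 (-1.07 to 0.10). These values turned to 0.034 and 0.037 when scaled to the endothelial list, and were -0.12 and -0.15 without replicate A of HFD. That scaling adds the same amount to every gene in this comparison. The distance of Cav1 and Cav2 below the median of all genes (0.10 before scaling) is therefore unchanged by it. Ehd2 (-0.40), Pacsin2 (-0.24) and Dnm2 (-0.10) did not pass either.

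The third question was whether the diet change differed between the 2 tissues. No member passed the interaction test of limma (0 of 7, against 0.0045% of all genes), none had an unadjusted p under 0.05 (4.71% of all genes), and edgeR and DESeq2 called 0 of 7. The difference of the diet changes, epididymal fat minus mesentery, was -0.80 for Cav2 (interval -1.62 to 0.03, adjusted p 1.00), -0.66 for Cav1 (-1.71 to 0.39), -0.62 for Plvap (-1.59 to 0.34) and 0.52 for Ehd4 (-0.02 to 1.07). For the tissue effect on Cav1 and Cav2, which passed on chow and not on HFD, this is the test of the difference, and it did not show that the diets differ.

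Related genes were read from lists of the same pathways, with values for those that passed. The caveola coat also contains the cavins, cytoplasmic proteins that wrap the caveolin scaffold. Of the 5 genes listed, 3 were tested (Cavin1, Cavin2 and Cavin3; Cav3 and Cavin4 were not analysed here). By limma 0 of 3 passed between the tissues on either diet, with 1 unadjusted p under 0.05 on each. On chow edgeR called 0 and DESeq2 1, and on HFD both called 0. The median difference on chow was 0.55, against -0.08 for all genes tested. Cavin1 was closest, with 2529 normalized counts in the mesentery libraries and 4704 in epididymal fat on chow (log2 0.90, interval 0.28 to 1.51, limma adjusted p 0.0565), in the same direction as Cav1. On HFD the list median was -0.24, against 0.06 for all genes tested. There Cavin1 was higher in epididymal fat (0.68), and Cavin2 (-0.24) and Cavin3 (-0.27) were lower, opposite to Cav1. Per kilobase, Cav1 to Cavin1 was 6.57 ± 2.25 (SD, n = 3) in mesentery and 11.6 ± 1.45 in epididymal fat on chow, and 6.19 ± 2.48 and 7.88 ± 0.809 on HFD, where the tissues overlapped.

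The counts that follow are to be read against the 12.8% of all genes that passed between tissues on chow and the 8.34% on HFD. Of 6 paralogues of the neck and scission proteins tested on chow, 2 were higher and 1 lower in epididymal fat and 3 did not pass, with a list median of 2.08. Pacsin1 (0 to 1.79 normalized counts) and Dnm1 (3.42 to 11.3) had few reads in mesentery on chow, so that median is uncertain. Ehd1, an endosomal recycling relative of Ehd2, had 321, 305 and 486 normalized counts in the mesentery libraries and 2380, 2280 and 2018 in epididymal fat on chow. The groups were far apart, and Ehd1 was 6.12-fold higher in epididymal fat (log2 2.61, interval 2.06 to 3.16, limma adjusted p 2.91e-05). Pacsin3 was also higher on chow (2.07, adjusted p 0.00194) and Dnm3 lower (-1.74, adjusted p 0.000219). On HFD 3 of the 6 passed, Ehd1 as higher (1.60, adjusted p 0.00190), and Dnm3 (-1.61, adjusted p 0.000583) and Ehd3 (-0.88, adjusted p 0.0459) as lower. The Ehd family was thus split on HFD, with Ehd1 higher and Ehd3 and Ehd4 lower in epididymal fat.

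**Figure D4:**
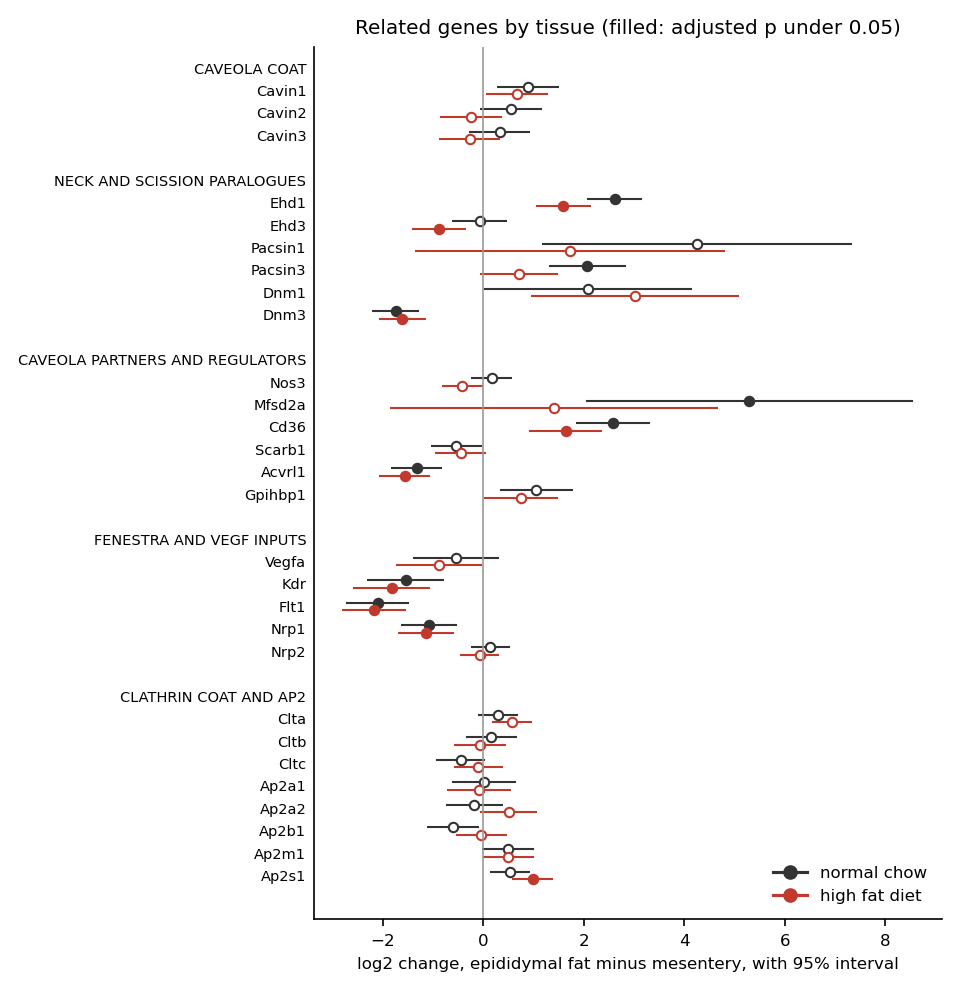
Fitted log2 change between epididymal fat and mesentery with its 95% interval (limma) for 28 genes of 5 related lists, on chow and on HFD; filled points had an adjusted p under 0.05. Kdr, Flt1 and Nrp1 are lower in epididymal fat on both diets and Ehd1 and Cd36 higher, while of the clathrin genes only Ap2s1 on HFD passes.

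Of 6 partners and regulators of caveolae, 3 passed on chow. Cd36, the fatty acid transporter that caveolin 1 helps keep at the surface, was 6.00-fold higher in epididymal fat (log2 2.59, limma adjusted p 0.000298), from 21138 to 127415 normalized counts. Mfsd2a, a lipid transporter known for keeping caveolae few at the blood-brain barrier, was at 0 in 2 of the 3 mesentery chow libraries and at 49.5 to 215 in epididymal fat (limma adjusted p 0.0351). Acvrl1, the endothelial receptor ALK1, fell by 1.32 on the log2 scale from mesentery to epididymal fat (adjusted p 0.00260). On HFD Cd36 (1.64, adjusted p 0.0101) and Acvrl1 (-1.56, adjusted p 0.00119) passed.

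Receptors of VEGF, the growth factor known to induce fenestrae and to sustain them, were lower in epididymal fat. Of 5 genes of the list, 3 passed as lower on each diet and 0 as higher. Of the 12 endothelial genes, 6 passed as lower on chow and 8 on HFD and 1 as higher on each diet, with list medians of -0.92 and -1.05, and their part in the receptor values was not tested. Flt1 (VEGF receptor 1) had 30275, 33715 and 17039 normalized counts in the mesentery libraries and 5755, 5738 and 6691 in epididymal fat on chow, with no overlap. Its differences were -2.10 on chow (limma adjusted p 0.000485) and -2.17 on HFD (adjusted p 0.000576). Kdr (VEGF receptor 2) differed by -1.54 (adjusted p 0.0124) and -1.81 (adjusted p 0.00706), and the co-receptor Nrp1 by -1.08 (adjusted p 0.0156) and -1.14 (adjusted p 0.0169). The fitted difference of Plvap was larger than that of each receptor on both diets, a contrast that was not tested itself. Of 8 genes of the clathrin coat and its AP2 adaptor, a separate route of uptake, 0 passed on chow by limma (2 unadjusted, 0 by edgeR and 1 by DESeq2) and 1, Ap2s1, on HFD (0.98, adjusted p 0.00588). Between diets, 0 of the 28 tested genes of these 5 lists passed by limma in mesentery (2 unadjusted, 0 by edgeR, 1 by DESeq2) and 0 in epididymal fat (9, 0 and 3). In the interaction the count was 0 too (4, 0 and 0).

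Lastly, genes with the most similar profile over the 12 libraries were sought, by the root mean square difference of centred log2 values over 9867 genes whose mean reached 100 normalized counts. The closest to Cav1 were Bbs9 (0.22), Chrnb1 (0.23) and Nectin2 (0.24), where the spread of Cav1 itself was 0.81. Cav2 was the 8th closest gene to Cav1, at 0.27. The closest to Cav2 were Ppp1r2 (0.11), Prdx6 (0.14) and Cyp4b1 (0.15), and to Plvap Id4 (0.42), Igfbp3 (0.45) and Exoc3l2 (0.46), where the spread of Plvap was 2.06. Nearest to Ehd4 were Ccrl2 (0.23), Traf5 (0.24) and Tnfaip2 (0.25), and to Ehd2 Pxdn (0.10), Sh3bp5 (0.12) and Pkia (0.14). Among those nearest to Pacsin2 were Csgalnact2 (0.15) and Calu (0.16), and nearest to Dnm2 were Psmb10 (0.10), Rrs1 (0.11) and Zmynd11 (0.12). The points share libraries and scaling, so these distances are descriptions. Within the 7, Ehd2 was at 0.30 from Cav2 and 0.29 from Pacsin2, and at 1.23 from Ehd4, while Ehd4 and Plvap were 1.28 apart and Cav1 and Plvap 2.78.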

How the data were processed

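Per the submitters' processing notes, STAR 2.7.9a, featureCounts, Subread, DESeq2 1.34.0 and the build mm39 were used; annotation and use of strand are not given in the sources used here. The authors deposited 1 table of normalized counts, treated here as a signal. Dividing each value by the step of its library gave whole reads in 100% of cases (within 1e-06), so reads were recovered; no gene had under 51 reads in all. Groups and replicates A to C were read from the sample titles, and 0 columns of values went unused.

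Under R 4.3.3, limma 3.58.1 fitted the differences after a log2(normalized count + 1) step, using a mean-variance trend and a mean for each of the 4 groups, on 22238 genes with a mean of at least 10. The 5 contrasts were each adjusted by Benjamini-Hochberg over all genes, with an adjusted p under 0.05 as threshold. This scale understates changes of low genes. The alternatives were pseudocounts of 0.5 and 5, other filters, edgeR 4.0.16 and DESeq2 1.42.0 on recovered reads, an equal total per library, scaling to 12 endothelial genes, a replicate block, the number range as a covariate, the libraries numbered 50 to 53, the groups of a contrast alone, and each library left out. Values per kilobase used exon lengths of GENCODE M21. The fit was tested on simulated data. All 7 genes, list genes that passed and the 3 genes most like each of the 7 are named; other list genes where a count needs one. Of these, 1 gene is not reported here. The members and lists were chosen with earlier results of these data known. Intervals cover the spread between libraries.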

Additional observations from a re-analysis of the deposited data

How the results depend on the processing

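Between the tissues, Plvap and Ehd4 passed on both diets, and Cav1 and Cav2 on chow, under all 12 other settings and with each library left out. On chow 4 to 6 of the 7 genes passed throughout; on HFD 2, but 3 for a mean of at least 50, with the number range as a covariate and with an equal total, 4 with DESeq2, 4 with the libraries numbered 50 to 53, 6 scaled to the endothelial list, and 2 to 4 with a library left out. Cav1 passed on HFD in 5 of the 12 other settings and Cav2 in 3. Between diets in mesentery and in the interaction 0 passed under every setting. In epididymal fat 0 passed, but 2 with DESeq2 and 1 scaled to the endothelial list. Dnm2 passed between tissues on HFD only with an equal total per library (-0.72, adjusted p 0.0224). Pacsin2 on chow was lost without a filter (adjusted p 0.0528), with edgeR (0.0810) and in a fit of the groups alone (0.0762).

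Counts over all genes moved more. The diet count in mesentery was 3, but 7 for a mean of at least 50, 1 by edgeR, 150 by DESeq2, 6 scaled to the endothelial list, 20 for the libraries numbered 50 to 53 and 1 in a fit of the groups alone. It was 1 to 37 with a library left out, the highest without chow replicate C. In epididymal fat it was 122, but 29 by edgeR, 563 by DESeq2, 472 with endothelial scaling and 31 for numbers 50 to 53, and 23 to 168 with a library left out, the lowest without HFD replicate C. Between tissues on chow it was 2843, but 4349 for numbers 50 to 53, and 1516 to 3278 with a library left out, the lowest without epididymal replicate B. On HFD it was 1854, but 1021 by edgeR, 2931 by DESeq2 and 6064 with endothelial scaling, and 728 to 1741 with a library left out, the lowest without epididymal replicate C. The interaction count was 1, but 3 for a mean of at least 50, 130 by DESeq2, 2 with endothelial scaling, 11 for numbers 50 to 53, and 1 to 20 with a library left out, the highest without mesentery chow replicate C. With a replicate block it was 2.

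Only uncalled values changed sign. For the diet in mesentery, edgeR gave 0.024 for Ehd2 and 0.014 for Ehd4, and numbers 50 to 53 gave 0.064 for Ehd4. An equal total gave 0.022 for Plvap, 0.13 for Ehd2, 0.12 for Ehd4 and 0.034 for Dnm2, and endothelial scaling 0.012, 0.12, 0.11 and 0.024. With a library left out the ranges were -0.34 to 0.053 for Plvap, -0.14 to 0.084 for Ehd2, -0.15 to 0.062 for Ehd4 and -0.29 to 0.064 for Dnm2. For the diet in epididymal fat, endothelial scaling gave 0.034 for Cav1, 0.037 for Cav2, 0.12 for Ehd2, 0.28 for Pacsin2 and 0.42 for Dnm2, and leaving out a library -0.54 to 0.018 for Pacsin2 and -0.26 to 0.060 for Dnm2. Between tissues on HFD endothelial scaling gave 0.22 for Dnm2. In the interaction this scaling gave 0.00088 for Ehd2, and for Dnm2 an equal total gave -0.28 and leaving out a library -0.17 to 0.19.

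The share of higher calls between tissues was 57.2% on chow and 58.9% on HFD, against 67.3% and 35.3% with an equal total and 85.1% and 95.6% with endothelial scaling. For the diet in epididymal fat it was 76.2%, 63.8% and 96.2%. The labels do not say what same-numbered libraries share beyond the number. Correlations of their deviations from group means were -0.149 to 0.583 over 6 pairs. On chow they were 0.027 to 0.583, against -0.676 to 0.521 for libraries of the 2 tissues with different numbers. On HFD they were -0.149 to 0.146, against -0.229 to 0.227. The replicate block was the title letter in the diet comparisons and the number in the others. Across diets, same-letter libraries had correlations of -0.675 to 0.436 in epididymal fat and -0.149 to 0.119 in mesentery. For different letters they were -0.664 to 0.838 and -0.184 to 0.213. The block left the counts of the 7 genes at 0, 0, 5, 2 and 0. With it, the counts of all genes in the first 4 comparisons were 4, 104, 2816 and 1890. For all changes named here the cause was not tested. The 3 libraries a group limit the precision of the diet changes, as their intervals show.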
